A study of Arabidopsis thaliana with 15 samples.

Results

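Early precursors of the stomatal lineage of Arabidopsis thaliana were compared with the whole epidermis on 6 of the 15 ATH1 arrays of the series, 3 per population. Both populations were chosen by their reporter as labelled, and all 20956 probe sets entered the comparison. The series covers 5 populations of protoplasts sorted by fluorescence, with 3 arrays each. The early precursors came from the line SPCHp::SPCH-YFP, in which the SPCH promoter drives a SPCH-YFP fusion. The epidermis came from ML1p::YFP-RCI2A, in which the ML1 promoter drives a membrane YFP. Both lines are in the Col background. The seedlings of both groups were 14 days old and grown at 25 °C on 1% sucrose, with 16 h of light and 8 h of darkness. Aerial tissue was digested for 2 h before sorting, and each replicate held 2000 to 20000 cells. Total RNA was amplified with the Ovation Pico WTA system and labelled with biotin. The values are log2 expression values from RMA, so a difference of 1 is a 2-fold change. The SPCH-YFP transgene can add its own transcript to the signal of the SPCH probe set. Early precursors and epidermis also differ in reporter line, and an effect of the line cannot be told apart from one of the cell type. The epidermis sort can itself contain lineage cells, since the ML1 promoter marks the entire epidermis. In these bulk sorts fewer cells of a type and less RNA per cell cannot be told apart. Nothing in the labels says that the replicates came from separate cultures, so the p-values measure the spread between these samples.

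Stomata arise in the leaf epidermis through a series of asymmetric divisions. The basic helix-loop-helix factor SPCH starts the lineage and keeps meristemoids dividing, its relative MUTE ends that phase, and FAMA acts at the last symmetric division and in guard cell identity. Early precursors are therefore small dividing cells, while most other epidermal cells of a leaf have stopped dividing, expand and often endoreduplicate.

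The labels were first checked against markers. SPCH read 9.19, 9.15 and 9.0 on the 3 early arrays and 2.38, 2.04 and 2.38 on the epidermis arrays. The early cells were sorted by a SPCH-YFP fusion whose transcript can add to this signal. SPCH is therefore no independent check of the label. The only other early marker measured, the polarity gene ATBRXL2, read 3.74, 5.79 and 5.85 against 1.96, 2.97 and 2.03. Both genes separated the groups, and early replicate 1 had the lowest ATBRXL2 value of the early arrays. ATBRXL2 did not pass the test (difference 2.81, SE 0.63, adjusted p = 0.113). Without early replicate 1 the difference was 3.50 and passed (adjusted p = 0.029). Here and below, a pass without the array that stood apart describes the spread and is no further support, since that array was seen first. MUTE lay near the background in both groups, at 1.49 to 1.76. FAMA, which the annotation lists as FMA, read 2.32, 1.90 and 2.66 against 3.38, 3.15 and 3.02 (adjusted p = 0.174). No probe set was listed to any of the 7 epidermis markers looked for, so the epidermis label could not be checked in this way.

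Markers of other cells stood out on single early arrays. The guard cell gene CHX20, a cation/proton exchanger, read 6.46 on early replicate 1 but 4.88 and 4.79 on the other early arrays, with 6.41 to 6.68 in the epidermis. The guard cell marker AT1G22690 followed the same order, at 6.99, 2.73 and 2.28 in early precursors and 5.54, 6.31 and 5.48 in the epidermis. Early replicate 1 thus lay within or above the range of the epidermis for CHX20 and AT1G22690, and the other early arrays below it. FAMA, of the same list, did not follow this order. It read 2.32 on early replicate 1, below the epidermis at 3.02 to 3.38, as did the other early arrays. Over the 5 measured of 11 guard cell and late lineage markers the summed signal in log2 was 7.82, 5.55 and 5.51 on the early arrays and 7.23 to 7.62 on the epidermis arrays, with AT4G14480 and MUTE near the background on all 6. CHX20 and AT1G22690 made up most of this sum. Without early replicate 1 CHX20 differed by -1.7 (adjusted p = 0.0336) and AT1G22690 by -3.27 (adjusted p = 0.029), and both passed. As replicate 1 was the array that stood apart in both genes, these passes describe the spread and are no further support. The trichome patterning gene TRY, the single measured gene of 5 trichome markers, read 6.61 on early replicate 2 and 1.97 to 2.67 on the other arrays. The mesophyll markers RCA, Rubisco activase, and SBPASE, a Calvin cycle phosphatase, were highest of the early arrays on replicate 3. RCA read 7.47, 6.54 and 9.52 there against 9.77, 9.13 and 10.35, and SBPASE 4.03, 3.65 and 6.95 against 8.46, 8.50 and 9.15. The summed signal of these 2 of 7 mesophyll markers was 6.72 to 9.75 in early precursors and 9.85 to 10.87 in the epidermis. The phloem gene SWEET11 and the meristem gene CLV3 were near the background on all 6 arrays, at 1.48 to 2.65, and no xylem or bundle sheath marker was measured. The part of such cells in the results below was not tested.

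The early arrays agreed less among themselves than the epidermis arrays. Pearson's r across probe sets was 0.82 to 0.867 between early arrays and 0.948 to 0.962 between epidermis arrays. The SD over the 3 arrays exceeded 1 at 2565 probe sets (12.2%) in early precursors and at 350 (1.67%) in the epidermis. For this reason probe sets were ranked by how far apart the groups lay. The gap is the lowest array of the higher group minus the highest array of the lower group, in log2. A probe set was called when limma's moderated test, fitted on the 6 arrays and adjusted by Benjamini-Hochberg over all probe sets, gave an adjusted p of 0.05 or lower.

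Of the 20956 probe sets, 273 (1.3%) were called, with 116 (0.554%) higher and 157 (0.749%) lower in early precursors. With cyclic loess between arrays the split was 157 higher and 140 lower. A fit of all 15 arrays, with a spread shared over the 5 populations, called 1868 (8.91%), 713 (3.4%) higher and 1155 (5.51%) lower. The 3 early arrays all lay above the 3 epidermis arrays at 2179 probe sets (10.4%) and all below at 2081 (9.93%), 4260 (20.3%) in all. In 1361 of these the gap was under 0.1. All 273 calls were among the separated probe sets. The median fold of the called probe sets was 6.73 on the higher side and 5.13 on the lower side. The widest gaps were on the higher side. A gap over 3 was found at 25 probe sets higher and 4 lower in early precursors, and a gap over 4 at 8 and 0, all of them called. The count of calls was 20, 32 and 36 without epidermis replicate 1, 2 and 3. It was 242, 263 and 452 without early replicate 1, 2 and 3. Without an epidermis array the pooled spread of the fit comes more from the early arrays, which spread more. Calls lost in this way, here and below, are therefore not shown to rest on the epidermis values. The annotation lists 1 gene for 137 of the 273 probe sets, with a symbol for 26 and a locus code alone for 110, and lists none for 135.

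**Figure D1:**
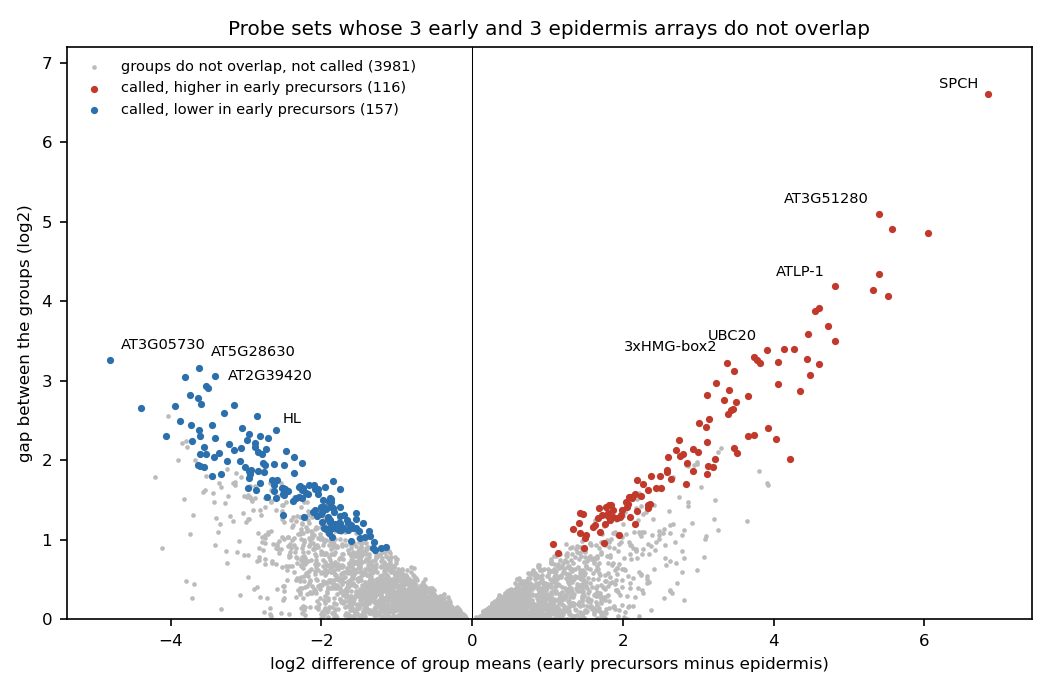
Each point is a probe set whose 3 early and 3 epidermis arrays do not overlap, with the log2 difference of the group means on the x axis and the gap between the groups in log2 on the y axis. Called probe sets are red (116 higher in early precursors) or blue (157 lower), all other separated ones grey. SPCH has the widest gap at 6.61, and the called points on the higher side reach wider gaps than those on the lower side, where the widest is 3.27.

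SPCH rose most, and 3 genes that act in mitosis were among the calls with a gene symbol. The epidermis was near the background for SPCH, that is at or below 2.68, the highest median of the 6 arrays. The fold is therefore a lower limit, for which each epidermis array was set to its own value or its array's median, whichever was higher. By this measure early precursors had at least 92.4-fold more SPCH signal (adjusted p = 0.00024). The transcript of the SPCH-YFP transgene can be part of this signal. UBC20 (AT1G50490), an E2 ubiquitin-conjugating enzyme of the type that serves the mitotic ubiquitin ligase APC/C, read 7.48, 7.43 and 7.77 in early precursors and 3.10, 3.80 and 4.05 in the epidermis. The groups lay 3.38 apart, and the mean was 15.1-fold higher (difference 3.92, SE 0.28, adjusted p = 0.00609). 3xHMG-box2 (AT4G23800), a protein that binds mitotic chromosomes, read 9.32, 9.28 and 9.36 against 5.74, 6.06 and 6.01. Its early arrays were nearly equal, and the mean was 10.4-fold higher (difference 3.39, SE 0.17, adjusted p = 0.00394). BUB3.1 (AT3G19590), a protein of the spindle checkpoint, read 6.42, 6.99 and 6.81 against 3.99, 4.23 and 4.99. It was 5.06-fold higher (adjusted p = 0.03).

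Of 12 tubulin and microtubule genes 1 rose, and of 5 phragmoplast and division plane genes 2 rose, where 0.554% of all probe sets did. TUB7 (AT2G29550), a β-tubulin, read 5.22, 6.55 and 5.93 in early precursors against 2.99, 2.78 and 2.60, an 8.64-fold rise (adjusted p = 0.0199). KINESIN-12B (AT3G23670), a motor of the phragmoplast, read 5.25, 5.27 and 4.72 against 3.07, 2.68 and 3.18 and was 4.30-fold higher (adjusted p = 0.0201). TPLATE (AT3G01780), a subunit of an endocytic adaptor complex that is found at the cell plate, read 6.54, 6.69 and 6.59 against 5.0, 5.22 and 5.21. Its rise of 2.76-fold was small, but both groups were tight and lay 1.32 apart (adjusted p = 0.0183). The call of TPLATE held in 5 of the 7 alternative settings that left out no array and had no replicate block, with adjusted p up to 0.174. The calls of TUB7, BUB3.1, KINESIN-12B and TPLATE were lost when any 1 of the 3 epidermis arrays was left out, with adjusted p up to 0.15, and BUB3.1 was also lost without early replicate 2 (0.0637) or 3 (0.0538). Those of UBC20 and 3xHMG-box2 held without each of the 6 arrays, with adjusted p up to 0.0491.

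**Figure D2:**
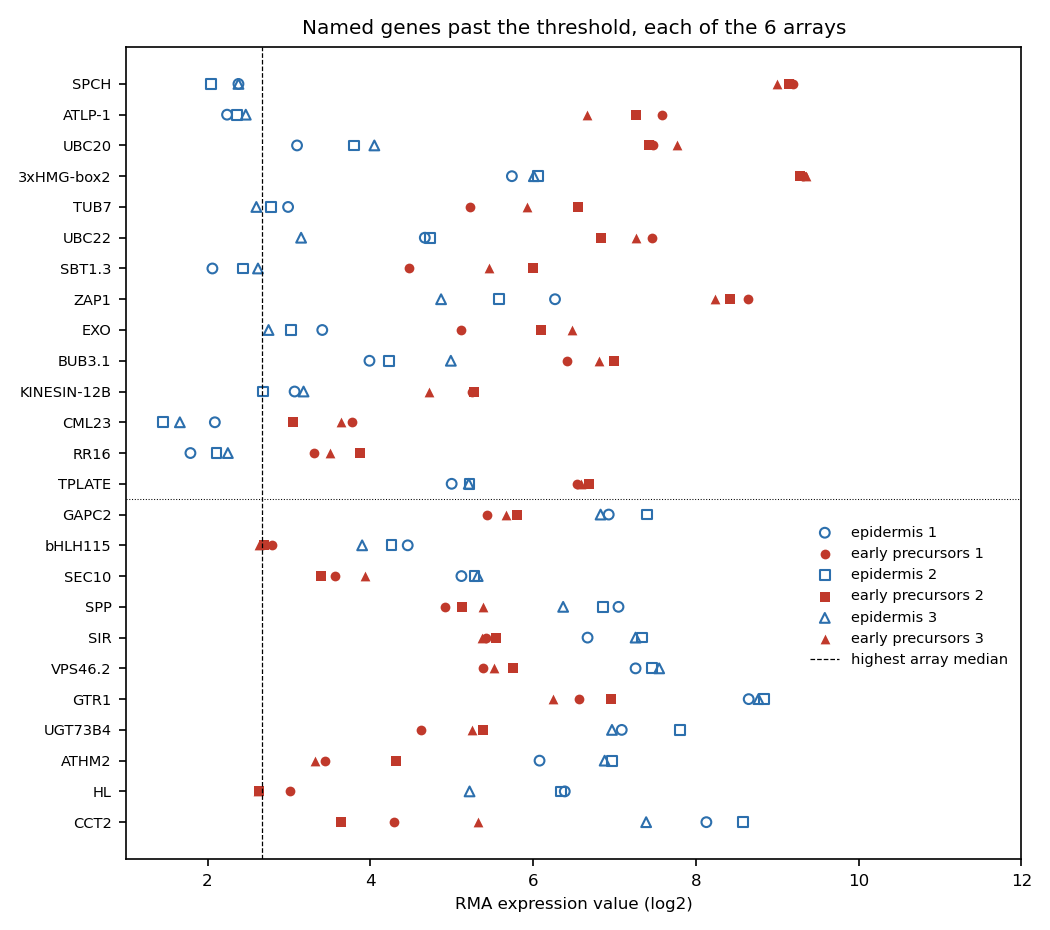
RMA expression values in log2 (x axis) of the 25 named genes with a symbol that passed the test, on each of the 3 early arrays (filled red) and 3 epidermis arrays (open blue), with marker shapes for replicates 1 to 3. The dashed line is the highest of the 6 array medians, and the dotted line parts the 14 genes that are higher in early precursors from the 11 that are lower. Red and blue markers do not overlap for any of these genes.

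Beyond these, the division lists were mixed. Over all probe sets 0.554% rose and 0.749% fell, and 10.4% lay above and 9.93% below on all early arrays. Of the 20 genes of the spindle, kinetochore and mitotic chromosomes 3 rose and 0 fell, and 9 lay above the epidermis on all early arrays and 1 below. Their median difference was 0.45, against 0.07 for all probe sets. It was 1.76 with the filter on dim probe sets, which goes by the mean of the 6 arrays, and 0.38 to 0.64 in the other settings. Of the 20 genes 6 were near the background in both groups. A gene near the background in the epidermis alone passes this filter only through its early values. BUBR1, AUR1, 3xHMG-box1, AUR3 and HTR12 did so. Their early means were 5.41, 4.12, 4.23, 3.38 and 2.94, and their epidermis means 2.63, 2.02, 2.45, 2.1 and 2.52. The median of 1.76 lies between the differences of AUR2 (1.74) and 3xHMG-box1 (1.77). The rise of the median to 1.76 is therefore partly built in by the filter. TOPII, DNA topoisomerase II, read 7.04, 6.45 and 6.92 in early precursors and 4.50, 3.38 and 5.38 in the epidermis, without passing (adjusted p = 0.0999). The checkpoint gene BUBR1 read 3.38, 7.07 and 5.79 against 2.72, 2.79 and 2.37 (adjusted p = 0.232). The Aurora kinase AUR1, which acts on mitotic spindles and chromosomes, read 4.84, 2.55 and 4.96 against 2.1, 1.90 and 2.05 (adjusted p = 0.22). In BUBR1 and AUR1 a single early array lay close to the epidermis, replicate 1 in the first and replicate 2 in the second. In 10 of the 20 genes the groups overlapped. Among these were UBC19, with means of 4.41 in early precursors and 4.38 in the epidermis (adjusted p = 0.984), and KINESIN-13A, with 4.12 and 4.06 (0.964).

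Of 5 phragmoplast and division plane genes the 2 named above rose. The list's median of 0.05 turned to -0.04 with cyclic loess and -0.01 with quantile normalization. KEU, a regulator of vesicle fusion in cytokinesis, read 6.30, 5.91 and 7.66 against 8.28, 7.74 and 7.52 (adjusted p = 0.341), so the groups overlapped. Tubulins and microtubule proteins went both ways, with 3 of 12 above and 3 below on all arrays (10.4% and 9.93% of all probe sets), and TUB7 alone called. TUB6 and TUB5 differed by -1.17 and -1.21 (adjusted p = 0.108 and 0.167). Of 6 DNA replication genes 0 were called and 0 separated, and 3 of them were near the background in both groups. Of 8 histone genes 0 were called and 1, the histone H2B gene HTB1, was separated, by a gap of 0.07. Where 10.4% of all probe sets lay above on all early arrays, chromatin remodellers had 5 of 16 above and 0 called. The largest difference among them was that of CHR23, a SWI2/SNF2 ATPase, which read 6.85, 8.79 and 4.79 against 3.23, 3.55 and 2.7 (difference 3.65, adjusted p = 0.16). Without early replicate 3, the lowest early array of CHR23, the difference was 4.66 and passed (adjusted p = 0.038).

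ATLP-1, SBT1.3 and EXO were called as well. ATLP-1 (AT1G18250), a thaumatin-like protein, read 7.58, 7.26 and 6.66 in early precursors and 2.24, 2.36 and 2.47 in the epidermis. It was at least 24-fold higher (adjusted p = 0.00394), with a gap of 4.19 that was the widest of a gene with a symbol after SPCH. SBT1.3 (AT5G51750), a subtilisin-like protease, read 4.48, 6.0 and 5.46 against 2.06, 2.44 and 2.62, and was at least 6.64-fold higher (adjusted p = 0.0331). EXO (AT4G08950), a secreted protein known for brassinosteroid-dependent growth, read 5.11, 6.10 and 6.48 against 3.41, 3.03 and 2.75. Its rise was 7.11-fold (adjusted p = 0.0329). In SBT1.3 and EXO early replicate 1 was the lowest early array, as it was in ATBRXL2 and TUB7.

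Among regulators, ZAP1 (AT2G04880), a WRKY transcription factor, read 8.64, 8.42 and 8.23 in early precursors and 6.27, 5.58 and 4.87 in the epidermis. It was 7.24-fold higher (adjusted p = 0.0274) and the single rise among 7 WRKY genes, which had a median of -0.11 that ranged from -0.61 to 0.04 over the settings tried. UBC22 (AT5G05080), another ubiquitin-conjugating enzyme, read 7.46, 6.84 and 7.27 against 4.67, 4.73 and 3.15 (8.01-fold, adjusted p = 0.0451). With UBC20 it made 2 rises among 12 genes of that family, whose median was -0.03, with -0.15 to 0.09 over the settings. Over all probe sets 0.554% were called higher. RR16 (AT2G40670), a type-A response regulator of cytokinin signalling, read 3.31, 3.87 and 3.51 against 1.79, 2.11 and 2.25. Its rise was at least 1.98-fold (adjusted p = 0.042). Of its family, 4 of the 6 response regulators measured were near the background in both groups. CML23 (AT1G66400), a calmodulin-like protein, read 3.78, 3.05 and 3.64 against 2.09, 1.45 and 1.66 and was at least 1.88-fold higher (adjusted p = 0.0464). SOL1 (AT3G22760), a TSO1-like DNA-binding protein, lay outside the rule for naming and was picked after its values were seen. It read 4.03, 3.64 and 4.43 against 2.34, 2.55 and 2.12 (difference 1.7, adjusted p = 0.0423).

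The calls of SBT1.3, EXO, ZAP1, UBC22, RR16, CML23 and SOL1 were lost when any 1 of the epidermis arrays was left out, with adjusted p up to 0.188. UBC22 and RR16 also lost the call whichever early array was left out (adjusted p up to 0.0925). ZAP1 lost it without early replicate 1 (0.0623) or 2 (0.0587), and CML23 (0.0894 and 0.0793) and SOL1 (0.0812 and 0.0511) without replicate 1 or 3. SBT1.3 lost it without early replicate 3 (0.0596) and EXO without replicate 2 (0.0701). ATLP-1 kept its call without each of the 6 arrays, with adjusted p up to 0.04.

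Some of the widest gaps belonged to genes known here by locus code alone. AT3G51280 read 8.04, 8.73 and 8.06 in early precursors and 2.87, 2.81 and 2.94 in the epidermis, a 42.3-fold rise (adjusted p = 0.00277). AT3G02120 read 8.22, 7.27 and 8.02 against 2.26, 3.13 and 2.17 and was at least 33.4-fold higher (adjusted p = 0.00609). AT3G52110 read 7.96, 9.77 and 7.95 against 3.06, 2.20 and 3.88, with early replicate 2 highest (45.7-fold, adjusted p = 0.0201). In all 3 the lowest early array lay more than 4 log2 units above the highest epidermis array. AT4G26660 read 6.94, 7.19 and 6.35 against 2.36, 2.01 and 2.48 (at least 19-fold, adjusted p = 0.00403). The calls of AT3G51280 and AT4G26660 held without each array in turn. That of AT3G02120 was lost without 1 epidermis array (adjusted p = 0.0502), and that of AT3G52110 without each (up to 0.0988).

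On the lower side, genes of sulfur and glucosinolate metabolism held 3 lower calls among 12 members and 0 higher, where 0.749% of all probe sets were called lower. Their median was -0.22, and -0.36 without early replicate 3. With the filter on dim probe sets, which goes by the mean of the 6 arrays, it was -0.70. That is the difference of OASA2, with means of 2.55 in early precursors and 3.25 in the epidermis. OASA2 was near the background in early precursors and passes this filter only through its epidermis values. The larger drop is therefore partly built in by the filter. In 4 of the 12 both groups were near the background. HL (AT5G54390), which resembles the phosphatase of sulfation by-products HAL2, read 3.01, 2.63 and 2.62 in early precursors and 6.39, 6.34 and 5.22 in the epidermis. It was 9.38-fold lower (difference -3.23, SE 0.35, adjusted p = 0.0183). GTR1 (AT3G47960), a glucosinolate transporter, read 6.57, 6.96 and 6.24 against 8.65, 8.84 and 8.77, and was 4.48-fold lower (adjusted p = 0.0163). SIR (AT5G04590), the sulfite reductase of sulfate assimilation, read 5.42, 5.55 and 5.37 against 6.67, 7.34 and 7.26, and was 3.12-fold lower (adjusted p = 0.0339). GTR2, the other transporter of the pair, overlapped between the groups at 2.44 to 3.02 and 2.77 to 3.07.

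Other lower calls were spread over several functions. ATHM2 (AT4G03520), an m-type thioredoxin of the chloroplast, read 3.44, 4.31 and 3.32 in early precursors against 6.08, 6.97 and 6.88, and was 7.76-fold lower (adjusted p = 0.0249). SPP (AT5G42390), the stromal processing peptidase that trims imported chloroplast proteins, read 4.92, 5.13 and 5.39 against 7.05, 6.86 and 6.37 (3.06-fold lower, adjusted p = 0.0427). GAPC2 (AT1G13440), a cytosolic glyceraldehyde-3-phosphate dehydrogenase, read 5.44, 5.80 and 5.67 against 6.93, 7.4 and 6.83. It was 2.68-fold lower (adjusted p = 0.0453) and kept its call in 3 of 14 alternative settings. CCT2 (AT4G15130), an enzyme of phosphatidylcholine synthesis, read 4.29, 3.64 and 5.32 against 8.13, 8.58 and 7.39. It was the lower gene with a symbol that had the largest fold among those called, at 12.3-fold (adjusted p = 0.0331), although its early arrays spread over 1.67. UGT73B4 (AT2G15490), a UDP-glycosyltransferase, read 4.62, 5.39 and 5.25 against 7.09, 7.81 and 6.97 (4.6-fold lower, adjusted p = 0.038). It was the single call among 50 probe sets of its family, whose median was 0.02, with -0.05 to 0.05 over the settings. Over all probe sets 0.749% were called lower.

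Membrane traffic genes supplied a pair of calls. VPS46.2 (AT1G73030), an ESCRT-III-related protein of endosomal sorting, read 5.38, 5.75 and 5.52 in early precursors and 7.26, 7.46 and 7.55 in the epidermis, 3.67-fold lower (adjusted p = 0.0136). Its list was uneven. Of the 12 ESCRT genes 4 lay below on all early arrays and 1 above, with a median of -0.29, and 1 passed. VPS2.2, another ESCRT-III component, read 4.80, 7.05 and 7.23 against 2.46, 2.94 and 2.26, in the opposite direction and without passing (adjusted p = 0.0619). SEC10 (AT5G12370), a subunit of the exocyst that tethers secretory vesicles, read 3.57, 3.40 and 3.93 against 5.12, 5.28 and 5.32, 3.04-fold lower (adjusted p = 0.0249). Of the 7 exocyst genes 3 lay below on all early arrays and 0 above, and 1 passed. Among all probe sets 9.93% lay below, 10.4% lay above and 0.749% were called lower. The iron-related transcription factor gene bHLH115 (AT1G51070) read 2.79, 2.69 and 2.63 against 4.46, 4.26 and 3.90 (2.83-fold lower, adjusted p = 0.0298). It was the single call among the 18 bHLH genes other than SPCH, MUTE and FAMA.

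Lower genes known by locus code had gaps of 2.82 to 3.27, the widest on that side among probe sets listed to a gene. AT3G05730 read 4.58, 2.46 and 3.27 against 8.45, 7.84 and 8.40 (27.8-fold lower, adjusted p = 0.0191). AT5G28630 read 4.66, 4.66 and 4.68 against 8.95, 7.84 and 8.10 (12.4-fold lower, adjusted p = 0.0103). AT2G39420 read 2.25, 2.61 and 2.71 against 6.0, 6.05 and 5.76, at least 9.60-fold lower (adjusted p = 0.00394). The early arrays of AT5G28630 were nearly equal, while those of AT3G05730 spread over 2.11. AT1G32470 read 4.66, 3.75 and 4.74 against 7.57, 8.31 and 8.50 (difference -3.74, adjusted p = 0.0137). Of the 15 lower genes named here, AT2G39420 alone held its call without each of the 6 arrays in turn. HL and AT5G28630 kept it without at least 1 epidermis array, and the other 12 lost it whichever of the 3 was left out, with adjusted p up to 0.184. UGT73B4, SIR, bHLH115 and GAPC2 also lost it whichever early array was left out (adjusted p up to 0.088). CCT2 lost it without early replicate 1 (0.0732) or 2 (0.0524), and SPP likewise (0.0809 and 0.0831). ATHM2 (0.0578) and SEC10 (0.0563) lost it without early replicate 1.

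Photosynthesis genes lay lower in early precursors as groups, with 0 calls among the listed members. The lists were made from symbols, so genes known by locus code alone are not in them. Among all probe sets 9.93% lay below the epidermis on all early arrays and 10.4% above. Of 43 plastid genes of the photosynthetic complexes 27 lay below the epidermis on all early arrays and 0 above, with a median of -0.58. The lowest adjusted p was that of petN, a cytochrome b6f subunit, which read 10.01, 8.85 and 9.59 against 10.94, 11.26 and 11.25 (difference -1.67, adjusted p = 0.0745). The size depended on the scaling, and the list's median was -0.32 with quantile normalization and -0.15 with cyclic loess. Plastid genes of transcription and translation had a median of -0.30, with 7 of 20 below and 0 above, and 0.00 with cyclic loess. Nuclear subunits of the light reactions lay lower still, at a median of -1.39, with 9 of 17 below and 0 above. LHCB4.1, an antenna protein of photosystem II, read 7.69, 7.79 and 7.92 against 9.06, 9.28 and 10.06 (adjusted p = 0.0613), and PSBW, a photosystem II subunit, 8.08, 8.44 and 8.75 against 9.58, 9.79 and 10.29 (adjusted p = 0.0697).

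The Calvin cycle and photorespiration genes, 4 in number, had a median of -2.17, which was -1.28 without early replicate 2, and 3 of them separated the groups. SBPASE passed without early replicate 3 (difference -4.86, adjusted p = 0.0152), the early array on which it was highest. PRK, phosphoribulokinase, read 9.42, 6.11 and 9.63 against 9.98, 10.29 and 10.65 and HPR, the peroxisomal hydroxypyruvate reductase, 7.64, 3.93 and 6.89 against 8.44, 8.60 and 8.69. Early replicate 2 was the lowest array in both. Tetrapyrrole synthesis, which makes chlorophyll and haem, had a median of -0.99 with 5 of 11 below and 1 above, and of -0.64 with cyclic loess and -1.55 with the filter on dim probe sets. Thioredoxins and peroxide defence had a median of -1.11 with 7 of 15 below, against 9.93% of all probe sets, and ATHM2 called. Near the threshold stood SRX, sulfiredoxin, at 3.69, 4.20 and 5.70 against 7.59, 7.53 and 7.85 (adjusted p = 0.0533), and TAPX, the thylakoid ascorbate peroxidase, at 3.02, 2.09 and 3.57 against 5.20, 5.04 and 5.13 (adjusted p = 0.0566). The photosynthesis groups lay on the same side as the summed mesophyll markers given above, of which RCA and SBPASE are also in the Calvin cycle list, and the part of mesophyll cells in these differences was not tested.

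Mitochondrial genes of respiration went the other way. Of 13 probe sets for 10 genes 5 lay above the epidermis on all early arrays, against 10.4% of all probe sets. In this list 0 lay below, against 9.93%, and 0 were called. The median was 0.31, and it was 0.50 with cyclic loess, 0.52 with quantile normalization and 0.18 without early replicate 1. The complex I subunit gene nad9 read 7.16, 7.29 and 6.83 in early precursors and 5.94, 5.94 and 5.51 in the epidermis (2.46-fold, adjusted p = 0.0546), and passed with cyclic loess (difference 1.59, adjusted p = 0.0479). Another complex I gene, nad4, read 9.01, 8.49 and 8.31 against 7.70, 7.47 and 7.50 (adjusted p = 0.109). The plastid and mitochondrial lists thus differed in sign on the same arrays.

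**Figure D3:**
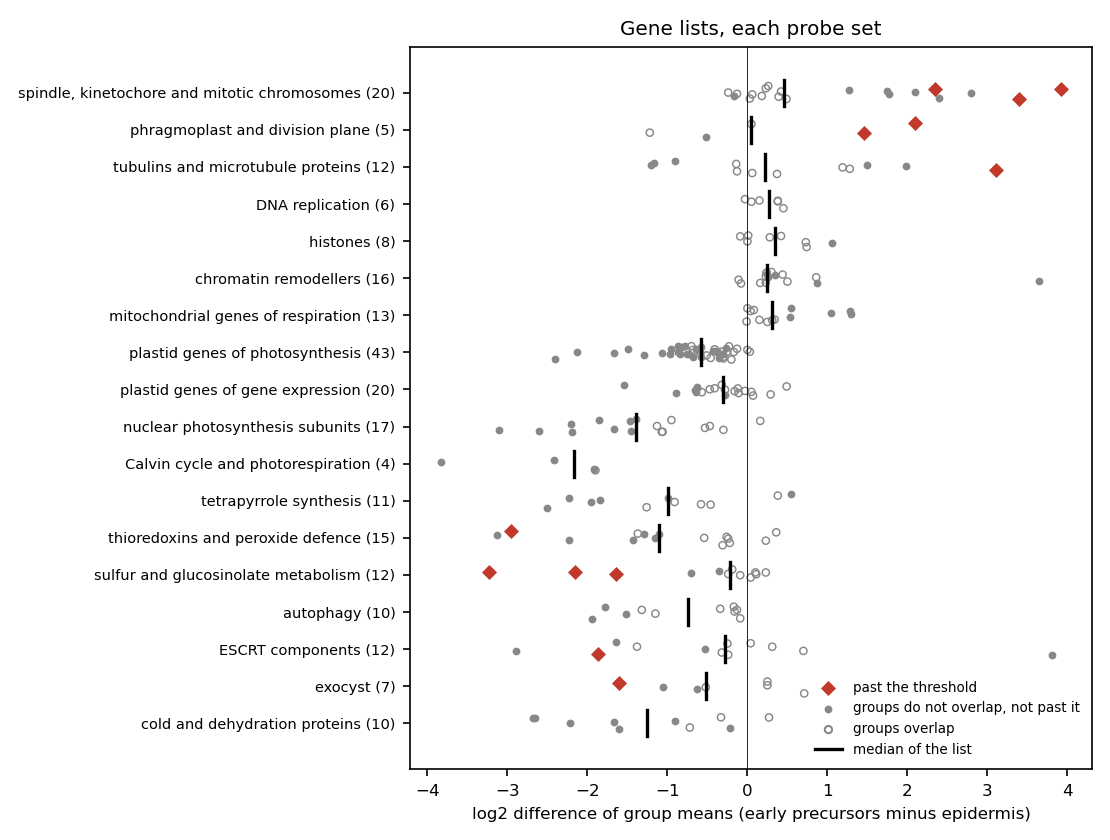
Log2 differences of group means (x axis, early precursors minus epidermis) for each probe set of 18 gene lists, with the number of probe sets in brackets and the list median as a black bar. Red diamonds passed the test, filled grey points separate the groups without passing, and open points overlap. The photosynthesis lists have medians left of 0 and 0 called, and the red diamonds on the right are in the division and tubulin lists.

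Cold and dehydration proteins and autophagy genes also lay lower, again with 0 calls. Of 10 cold and dehydration genes 7 lay below the epidermis on all early arrays and 0 above, with a median of -1.25. COR15B, a chloroplast protein induced by cold, read 5.12, 4.41 and 5.14 against 6.85, 8.94 and 6.93 (adjusted p = 0.11). The dehydrins LTI30 and COR47 read 7.71, 6.02 and 6.80 against 9.38, 9.68 and 8.12, and 9.46, 9.33 and 10.42 against 11.78, 11.69 and 10.76. In both dehydrins epidermis replicate 3 was the lowest epidermis array. All 10 autophagy genes had a negative difference, with a median of -0.74, and 3 lay below on all early arrays, where 9.93% of all probe sets did. The median was -1.52 with the filter on dim probe sets, which goes by the mean of the 6 arrays, and -0.43 without early replicate 2. In 3 of the 10 both groups were near the background. ATG8F, which builds the autophagosome membrane, read 6.71, 5.81 and 6.03 against 7.54, 8.01 and 8.81 (adjusted p = 0.0892).

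Array by array, some list medians were steadier than others. Relative to the epidermis mean, the spindle list had medians of 0.47, 0.42 and 0.54 on the 3 early arrays and from -0.01 to 0.03 on the epidermis arrays. The mitochondrial list stood at 0.77, 0.45 and 0.33, against -0.05 to 0.04. The spindle list was therefore even over the early arrays, and the mitochondrial list was highest on replicate 1. The nuclear photosynthesis list stood at -1.46, -1.67 and -1.20, but the epidermis arrays spread from -0.47 to 0.71. The Calvin cycle list stood at -1.61, -4.42 and -1.18, so that replicate 2 set its mean. The cold and dehydration list stood at -1.14, -1.39 and -0.89, and epidermis replicate 3 at -0.58 lay nearest to it.

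**Figure D4:**
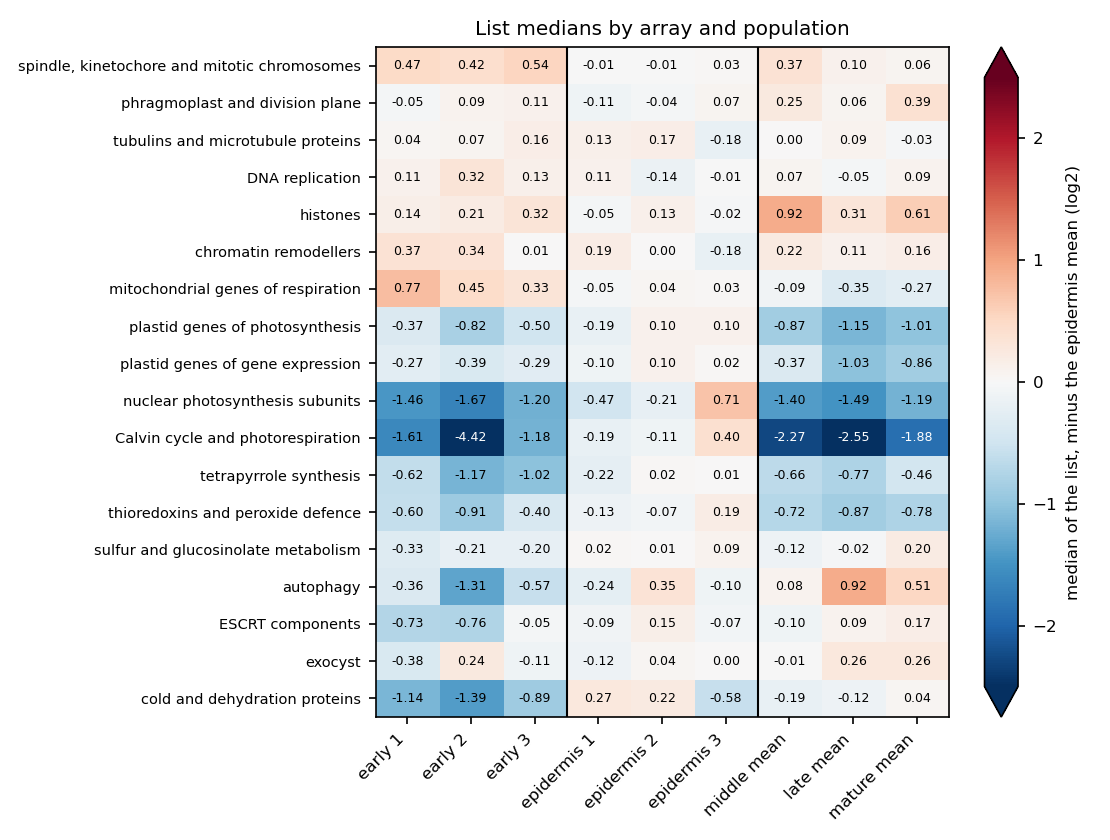
Median over each gene list of the log2 value minus the epidermis mean, for the 3 early and 3 epidermis arrays and for the means of middle precursors, late precursors and mature guard cells (columns). Red is above and blue below the epidermis mean, with the value printed in each cell and colours cut at 2.5 either way. The photosynthesis lists are blue in all 4 lineage populations, while the cold and dehydration list is at -0.89 to -1.39 on the early arrays and within 0.19 of the epidermis mean elsewhere in the lineage.

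Single early arrays stood apart at many genes. The 3 early arrays spanned at least 2 log2 units at 2312 probe sets, and the epidermis arrays at 265. Where 1 array accounted for at least 75% of such a range, early replicate 1 was alone high at 212 probe sets and alone low at 165. Replicate 2 was alone high at 297 and alone low at 193, and replicate 3 at 273 and 41. IQD30, a calmodulin-binding protein gene, read 7.42 on replicate 1 and 2.06 and 1.94 on the others, with 1.85 to 2.08 in the epidermis. On replicate 1 SE, the zinc finger protein of microRNA processing, read 2.26 against 5.44 and 5.26 on the other early arrays. SDP1, a lipase of oil breakdown, read 2.73 on replicate 2 and 7.36 and 6.78 on the others. SEC22, a SNARE of transport between endoplasmic reticulum and Golgi, read 9.03 on replicate 3 against 5.31 and 5.41. None of these 4 genes was called, and a mean over the early arrays describes none of them well.

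The levels of named genes in the other sorted populations are given as a description. These genes were called for a difference between early precursors and the epidermis, a choice that by itself favours an early mean at the extreme of the 5. Named genes followed different courses from early to middle precursors. SPCH had means of 9.11 in early precursors and 4.10 in middle precursors, and ATLP-1 means of 7.16 and 3.21. UBC20 and 3xHMG-box2 stood at 6.21 and 8.10 in middle precursors, nearer to their early means of 7.56 and 9.32. KINESIN-12B, at 5.0 against 5.08, was level within the spread of the arrays. SBT1.3 and CML23 were higher in middle precursors, at 6.06 and 4.03, than in early ones, at 5.31 and 3.49. TPLATE stood at 5.40 in middle precursors, where the epidermis stood at 5.14. On the lower side HL stood at 5.21, CCT2 at 7.67 and UGT73B4 at 7.06 in middle precursors, against 2.75, 4.42 and 5.09 in early ones, while GTR1 stood at 7.36 there, at 7.37 in late precursors, then at 8.63 in mature guard cells. These differences between lineage stages were not tested here.

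**Figure D5:**
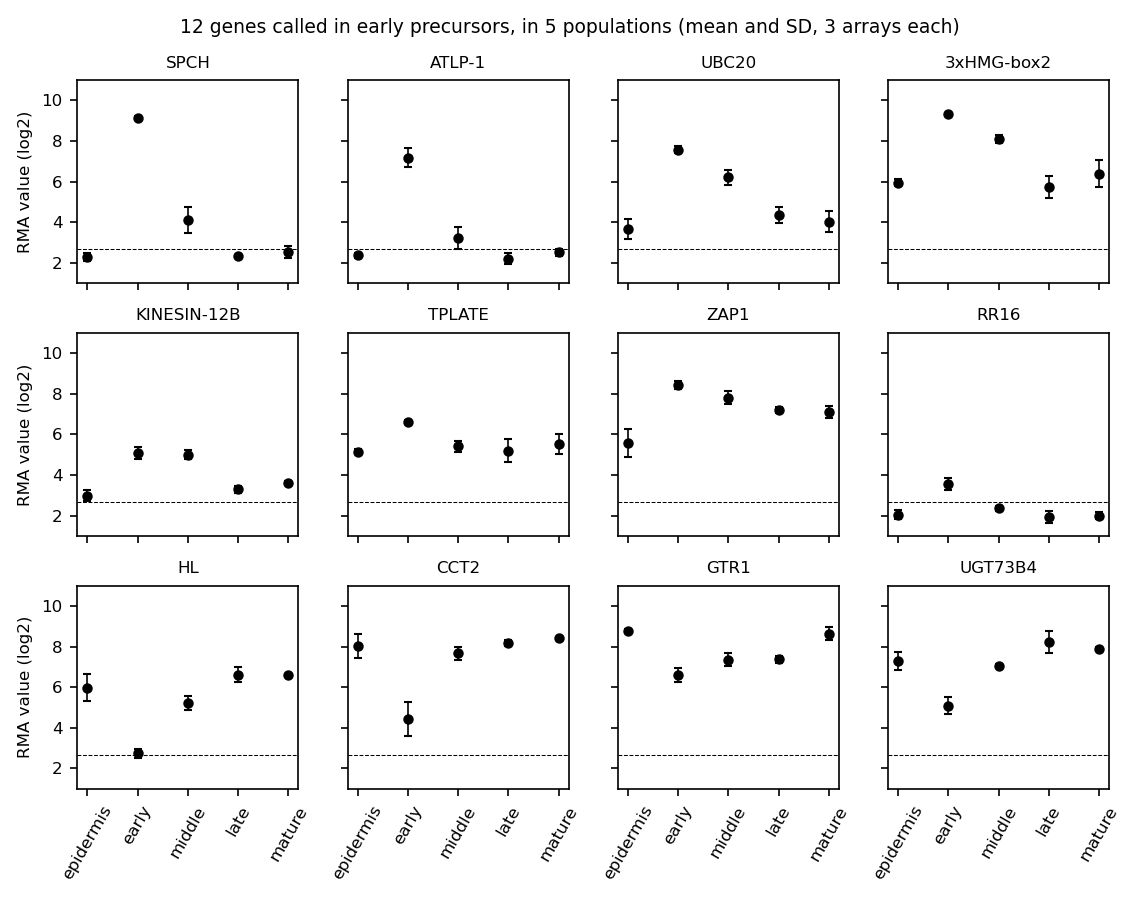
RMA expression values in log2 (y axis, mean with SD as bars, 3 arrays per population) of 12 genes called in early precursors, in the epidermis, early, middle and late precursors and mature guard cells (x axis). The dashed line is the highest median of the 6 arrays compared. SPCH and ATLP-1 are high in early precursors and close to the dashed line in the late and mature populations, and HL and CCT2 are low in early precursors and above it in the other 4 populations.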

How the data were processed

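The authors deposited log2 expression values, 1 for each probe set on each array. Per the submitters' processing notes they come from RMA as run by affy, with no version given. That the base is 2 was inferred from this method and the values, which run from 1.12 to 13.35. Precision is limited by the number of arrays.

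The 6 arrays were fitted with limma 3.58.1 in R 4.3.3 (1 mean per group, 4 residual degrees of freedom, eBayes, two-sided), with Benjamini-Hochberg over all 20956 probe sets. Only these arrays entered, because early arrays spread more than those of other populations. Exact permutation of 3 arrays against 3 cannot go below p = 0.1 and was not used. Errors are standard errors from the fit, and the script was tested on simulated data. A group mean at or below 2.68 was taken as near the background, which held in both groups for 9565 probe sets.

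The platform annotation lists 1 gene for 12783 probe sets, of which 12720 were found in the RefSeq gene list and 1538 have a symbol, and none for 8136. Coordinates are not given, as the sources used here name no build. Genes were named by a rule: the 12 higher and 12 lower calls with a symbol and the widest gap (11 exist on the lower side), the 4 with a locus code alone in each direction, up to 2 in each direction from each list, and all measured markers. The rule asked for a product description of locus codes, which the annotation mostly lacks, so this was dropped. Of 48 lists, 45 have measured members, and family lists were made from symbols after the annotation had been read. The members and lists were chosen with earlier results of these data known. Alternatives covered the arrays in the fit, weights, a replicate block, eBayes options, normalization, a filter on dim probe sets and leaving out each array.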

Additional observations from a re-analysis of the deposited data

How the results depend on the processing

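The 273 calls became 1868 with all 15 arrays in the fit (270 of the 273 among them), 770 with 1 weight per group, 290 with array weights, 230 with trend and robust options, 297 with cyclic loess, 299 with quantile normalization and 379 of 10274 tested with the filter on dim probe sets. Leaving out 1 array gave 20 to 452 calls. Members of the gene lists past the threshold, 20 as reported, numbered 102 with all 15 arrays, 45 with 1 weight per group and 3 to 27 with 1 array left out. Of the 33 named calls, all held with 15 arrays, 24 to 31 with the other settings of weights, options, scaling and filter, and 8 to 24 with 1 array left out, 21 of them without early replicate 1. Of these 33, 7 held without each of the 6 arrays in turn, 18 held without each early array and 23 were lost without each epidermis array. The labels do not say whether same-numbered arrays share a culture or a sort. The correlations of their deviations from the group means were 0.039, -0.006 and -0.01, and not every array correlated best with its own number. With so few arrays these values cannot settle the question. With the replicate number as a block 1 probe set (SPCH), 1 named call and 1 list member passed. The 4260 separated probe sets became 2742 with the filter on dim probe sets, which tests fewer probe sets, and 5644 to 7334 with 1 array left out, where fewer arrays have to be separated. Of 560 list medians recomputed, 78 moved by more than 1 SD. The median of all probe sets, 0.067 as reported, was 0.02 with cyclic loess and 0.028 with quantile normalization. No reported value with a test reversed. For the other shifts the cause was not tested. With 3 arrays a group and early arrays that spread widely, genes short of the threshold are not shown to be unchanged, and values near the background have no reliable order.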

Other observations

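Other families held few or 0 calls. Of 28 expansin and XTH genes, which loosen the cell wall, 5 lay above the epidermis on all early arrays and 3 below. The shares over all probe sets were 10.4% and 9.93%. The list had 0 called and a median of 0.07, with -0.02 to 0.17 over the settings. EXPB3, a β-expansin, read 4.76, 7.04 and 8.14 in early precursors and 2.95, 2.20 and 3.05 in the epidermis (adjusted p = 0.101). Without early replicate 1, the lowest early array of EXPB3, its difference was 4.86 and passed (adjusted p = 0.0214). XTH16 read 4.25, 4.74 and 6.21 against 2.75, 2.41 and 2.81 (adjusted p = 0.0964), and without early replicate 3 its difference was 1.83 and passed (adjusted p = 0.0399). These genes therefore differed in which early array was the odd one. Of 18 CLE and RALFL signalling peptides 14 were near the background in both groups. RALFL34 stood out at 4.38, 4.76 and 4.59 against 2.83, 2.34 and 3.42 (adjusted p = 0.063). The calmodulin-like proteins went both ways, with CML23 higher and CML38 lower by 2.01 on average without passing (adjusted p = 0.0741).

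Of 14 glutathione transferase genes 1 lay above and 2 below the epidermis on all early arrays, with 0 called. These counts are near the shares over all probe sets, 10.4% above and 9.93% below. The tau-class glutathione transferase GSTU25 read 2.84, 3.73 and 2.83 in early precursors and 5.38, 5.63 and 4.75 in the epidermis (adjusted p = 0.0545), and passed with array weights (0.0451) and with the filter on dim probe sets (0.0365). GT72B1, a UDP-glycosyltransferase, read 1.97, 2.24 and 3.89 against 6.53, 6.41 and 5.47 (adjusted p = 0.0545). Early replicate 3 was closest to the epidermis in GT72B1, and early replicate 2 in GSTU25.

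Among 5502 pairs of neighbouring protein-coding genes with both measured, both members were called in 1 pair, AT4G29020 and AT4G29030. AT4G29020 read 11.09, 11.80 and 11.52 in early precursors against 7.48, 8.36 and 8.08 (adjusted p = 0.0107). AT4G29030 read 6.2, 6.09 and 6.16 against 3.27, 2.71 and 3.12 (adjusted p = 0.00548). Both rose, and the pair was picked after its values were seen.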
